A study of Homo sapiens with 12 samples.

Results

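Transcripts of the SR proteins and the heterogeneous nuclear ribonucleoproteins (hnRNPs) were followed through retinoic acid treatment of HL-60 cells. The genes were taken by name, as every symbol in the deposited count files that starts with SRSF or HNRNP. This gave 43 of 26364 genes, made up of 12 SR protein genes, 18 hnRNP genes, 7 hnRNP-like genes, 4 hnRNP pseudogenes and 2 hyphenated symbols (HNRNPU-AS1 and HNRNPUL2-BSCL2). Enough reads for testing were found in 33 of them: all 12 SR protein genes, 17 hnRNP genes, the hnRNP-like genes HNRNPLL, HNRNPUL1 and HNRNPUL2, and the antisense transcript HNRNPU-AS1. The other 10 had few counted reads, at most 11 over all 12 libraries and 0 for 4 of them. Ambiguous reads and reads with several alignments were not assigned to genes, so low counts alone do not show that these genes were silent. HNRNPH2 was the only hnRNP gene among these 10, with 4 reads in all.

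HL-60, a human promyelocytic leukemia line, matures toward neutrophils under all-trans retinoic acid (ATRA), which activates retinoic acid receptors. RNA-seq counts per gene were compared among 4 groups of 3 libraries: untreated HL-60 cells (0 h), then cells kept with 1 µM ATRA for 4 h, for 2 d or for 4 d. All groups were cells of this 1 line, and untreated cultures of the later times were not analysed here, so time in ATRA and time in culture cannot be told apart. The labels do not say whether replicates were separate cultures, so p-values measure the spread between these libraries, which may be technical.

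SR proteins carry RNA recognition motifs and a domain rich in serine and arginine, and most bind exonic enhancers and help recruit the spliceosome to nearby splice sites. hnRNPs coat newly made transcripts, and many of them act as splicing silencers and also take part in mRNA export, stability and translation. Several genes of both families limit their own output through alternative exons that send the transcript to nonsense-mediated decay. The values here are per gene and do not separate such isoforms.

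Reads assigned to genes numbered 7866757 to 13658177 per library, of which the 43 genes held 79778 to 158191. Replicates differed by more than counting error in every pair (chi-square per degree of freedom 3.47 to 98). In 3 libraries, expression followed GC content more steeply than in their group mates, with slopes of 0.498 in 0 h replicate 2, 0.401 in 4 h replicate 3 and 0.329 in 4 d replicate 1 (log2 per 10 points of GC). In 4 h replicate 1, 22265 genes had a read, against 15198 to 15798 in the other 11 libraries. Granule protein transcripts of the promyelocyte (5 markers) summed to 30500 to 43700 CPM (reads relative to the gene reads of the library) in the 0 h libraries, 39500 to 66800 CPM in those of 4 h, 29100 to 37100 CPM in those of 2 d and 8150 to 9510 CPM in those of 4 d. The markers of granulocyte maturation summed to 272 to 304, 498 to 528, 1670 to 1800 and 2920 to 3130 CPM at 0 h, 4 h, 2 d and 4 d. Summed markers of other lineages (7 genes) lay at 0.653 to 3.39 CPM up to 2 d and at 6.25 to 8.8 CPM at 4 d, and the erythroid marker HBA1 was at 0 in all libraries. Most of the 4 d sum was CD3E, at 4.56 to 7.32 CPM, against at most 1.71 CPM up to 2 d. The part of these shifts in the results below was not tested. In bulk libraries, fewer cells of a type and less RNA per cell cannot be told apart.

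The 43 genes together held 1.05% ± 0.13 of the gene reads before ATRA, 1.13% ± 0.12 at 4 h, 0.987% ± 0.048 at 2 d and 0.836% ± 0.044 at 4 d (SD, n = 3 each). Per kilobase of exon, the most abundant at 0 h were HNRNPAB at 298 CPM per kb, HNRNPM at 237, HNRNPA2B1 at 214, HNRNPK at 197 and HNRNPD at 191. SRSF1 led the SR proteins at 120 CPM per kb, followed by SRSF7 at 102. HNRNPLL at 6.35, SRSF10 at 5.43 and SRSF12 at 0.573 CPM per kb were near the low end. Exon lengths came from another annotation than the counts, by symbol, so these levels are approximate.

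Fold changes are log2 values ± SE from edgeR's quasi-likelihood test on all 12 libraries, adjusted by Benjamini-Hochberg over 12671 genes, and a gene was called at an adjusted p under 0.05. Levels of single genes, like the marker sums, are CPM after trimmed-mean (TMM) scaling. Over all 4 times, 19 of the 33 genes (57.6%) were called different at some time, against 63.2% of all genes tested. The share of these genes that changed was therefore near the share of all genes, and the comparisons below describe when they changed and in which direction.

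HNRNPLL was the one gene called higher in each comparison with 0 h. It encodes an hnRNP L relative that is best known for exon skipping in CD45 during lymphocyte activation. HNRNPLL had 37.6, 20.9 and 38.4 CPM in the 0 h libraries, 130, 123 and 97.1 at 4 h, 156, 149 and 140 at 2 d, and 233, 243 and 219 at 4 d. Every library of a later time lay above every library of the time before it. The log2 fold change over 0 h was 1.85 ± 0.21 at 4 h (adjusted p = 0.000227, 3.61-fold), 2.20 ± 0.22 at 2 d (7.21e-06, 4.59-fold) and 2.84 ± 0.22 at 4 d (2.38e-07, 7.17-fold). The step of 2 d over 4 h was not called (0.34 ± 0.21, adjusted p = 0.215). The step of 4 d over 2 d was 0.64 ± 0.21 (adjusted p = 0.0343). That step lost its call without 4 h replicate 2, or without any single library of 2 d or 4 d, with adjusted p = 0.109 without 2 d replicate 3 as the highest (0.60 to 0.78 and adjusted p 6.63e-05 to 0.109 over all alternatives). HNRNPL, the closely related general hnRNP, went the other way at 4 d, as given further on. The HNRNPLL promoter is shown because this gene alone was called higher at 4 h. It is the RefSeq window of GRCh38.p14 from 250 bases before to 50 bases after the annotated start, chr2:38602879-38603178 on the minus strand, with its 2 CCAAT boxes in capitals, 5′ to 3′.
HNRNPLL: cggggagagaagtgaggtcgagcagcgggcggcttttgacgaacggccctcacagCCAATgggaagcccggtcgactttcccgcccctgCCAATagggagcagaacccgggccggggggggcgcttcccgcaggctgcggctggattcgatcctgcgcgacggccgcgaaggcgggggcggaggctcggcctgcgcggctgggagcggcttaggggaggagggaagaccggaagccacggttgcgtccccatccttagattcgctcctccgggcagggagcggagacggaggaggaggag
Neither retinoic acid receptor core half-site searched on both strands (AGGTCA and the variant AGTTCA) is spelled in this window. One or the other is in 22.8% of the 27305 RefSeq promoters of this length and in 6 of the 30 tested genes with an entry, and CCAAT, on either strand, is in 35.7% and in 14 of 30. These matches describe letters, not binding.

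**Figure D1:**
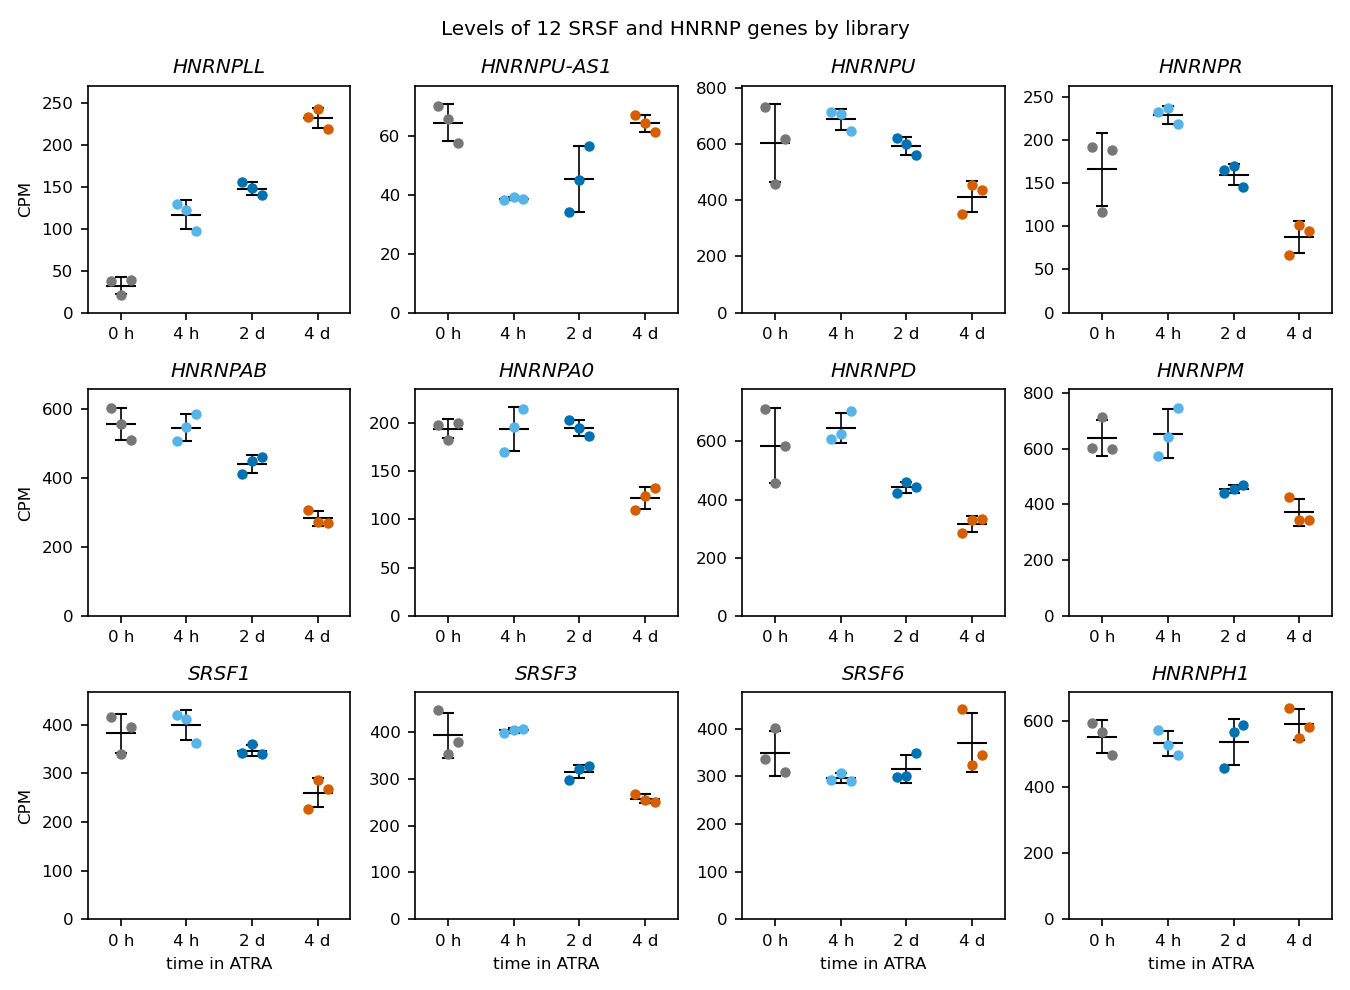
CPM (y axes, linear from 0) of 12 SRSF and HNRNP genes against time in ATRA (x axes); points are single libraries in replicate order, bars the mean ± SD (n = 3). HNRNPLL climbs at every time, HNRNPU-AS1 is low at 4 h and back at its 0 h level at 4 d, and HNRNPAB, HNRNPR, HNRNPD, HNRNPM, SRSF1 and SRSF3 are lowest at 4 d.

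At 4 h of ATRA few genes of the family were called, a share (6.06%) near that of all genes. Of the 33 genes tested, 1 was called higher and 1 lower, against 2% and 4.23% of all genes (6.23% in both directions), and the median log2 fold change was 0.03 against 0 over all genes. HNRNPU-AS1, transcribed antisense to HNRNPU, was the one that fell. It had 38.4, 39.4 and 38.6 CPM in the 4 h libraries, against 70.2, 65.8 and 57.8 at 0 h. All 4 h libraries lay below all 0 h libraries, with a log2 fold change of -0.74 ± 0.17 (adjusted p = 0.0214). The call was lost without 0 h replicate 1, 4 h replicate 1 or 4 h replicate 2 (highest adjusted p = 0.0917, range over all alternatives 0.00111 to 0.0917), each of which left 1 gene called instead of 2. Over all genes, 597, 340 and 254 were called in these fits, against 790 in the main fit. Whether the counting used strand is not given in the sources used here, and without strand the reads of HNRNPU and its antisense partner cannot be told apart.

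No SR protein gene was called at 4 h by edgeR, 0 of 12 reached an unadjusted p under 0.05, and DESeq2 called 0. Without the 3 libraries of steep GC slope SRSF11 was called higher (0.37, adjusted p = 0.0332). Their log2 fold changes ran from -0.58 (SRSF12) to 0.37 (SRSF10). SRSF10, a splicing repressor that is dephosphorylated on heat shock, had 63.8 CPM in 4 h replicate 1 and 33.2 and 31.6 CPM in its mates, against 36.3, 30.9 and 32.2 CPM at 0 h. The high value was that of a single library, the one with the most detected genes. SRSF5 and SRSF6 lay below their 0 h libraries in every 4 h library without being called (-0.25 ± 0.16 and -0.23 ± 0.17, adjusted p = 0.319 and 0.37). HNRNPF and HNRNPR stood above their 0 h libraries in every 4 h library, also without passing the test. HNRNPF, which binds G-rich RNA, had 445, 440 and 424 CPM at 4 h, against 363, 247 and 374 CPM at 0 h (0.41 ± 0.18, adjusted p = 0.176). HNRNPR had 232, 237 and 218 CPM at 4 h, against 192, 117 and 188 CPM at 0 h (0.47 ± 0.21, adjusted p = 0.179). Both genes had their lowest 0 h value in replicate 2, a library of steep GC slope. Without it the adjusted p was 0.487 for HNRNPF and 0.501 for HNRNPR.

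At 2 d, 4 genes were called lower than at 0 h and HNRNPLL higher, 5 of 33, while 18.7% of all genes were called lower and 16.9% higher, 35.6% in all. The median was -0.14 against -0.02 for all genes. HNRNPM, a regulator of exons in epithelial to mesenchymal transition, had 440, 454 and 469 CPM at 2 d, against 603, 714 and 597 CPM at 0 h, with no overlap (-0.49 ± 0.16, adjusted p = 0.0295). HNRNPC, which binds uridine tracts and shields the 3′ splice sites of Alu elements, had 524, 606 and 577 CPM at 2 d, against 866, 722 and 714 CPM at 0 h, again with no overlap (-0.43 ± 0.15, adjusted p = 0.0381). HNRNPU-AS1 was lower in each 2 d library, at 34.3, 45.2 and 56.6 CPM, against 70.2, 65.8 and 57.8 CPM at 0 h (-0.51 ± 0.17, adjusted p = 0.0304). SRSF12, a low-level relative of SRSF10, had 0.514, 0.832 and 0.985 CPM at 2 d, against 1.93, 1.82 and 2.44 CPM at 0 h (-1.42 ± 0.44, adjusted p = 0.0231), from at most 25 reads in a library.

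The HNRNPLL call at 2 d held under every alternative, while the 4 lower calls each depended on single libraries, though their fold changes stayed below 0. Leaving out 2 d replicate 1 took all 4 past the threshold (adjusted p = 0.0983 for HNRNPM, 0.144 for HNRNPC, 0.144 for HNRNPU-AS1 and 0.105 for SRSF12), and leaving out 2 d replicate 2 did too. HNRNPM also lost its call without 0 h replicate 2, 4 h replicate 2 or 2 d replicate 3, HNRNPC without 0 h replicate 1, 0 h replicate 3, 4 h replicate 2, 2 d replicate 3 or 4 d replicate 3, HNRNPU-AS1 without 0 h replicate 1, and SRSF12 without 0 h replicate 3. The number called was 8 without 0 h replicate 2, 3 without 0 h replicate 1, 0 h replicate 3, 4 h replicate 2 or 2 d replicate 3, and 1 without 2 d replicate 1 or 2 d replicate 2. Over all genes, 4512 were called in the main fit, 4400 without 0 h replicate 2, 3124 without 2 d replicate 1 and 3434 without 2 d replicate 2. With the 3 libraries of steep GC slope all left out, 10 were called, 9 of them lower, and 6761 over all genes. HNRNPA3, HNRNPD, HNRNPDL and SRSF3 were among the genes called lower in that fit, without 0 h replicate 2 alone and by DESeq2. Over all alternatives the adjusted p ran from 0.00377 to 0.108 for HNRNPM, 0.00244 to 0.183 for HNRNPC, 0.00884 to 0.144 for HNRNPU-AS1 and 0.00234 to 0.105 for SRSF12.

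Set against 4 h rather than 0 h, the 2 d libraries had 5 genes called lower and 0 higher, while 18% and 16.5% of all genes were, 34.5% in all. All 5 encode hnRNPs: HNRNPA3, HNRNPD, HNRNPDL, HNRNPM and HNRNPC. HNRNPD, also known as AUF1, binds AU-rich elements of unstable mRNAs, and HNRNPDL is its closest relative. HNRNPD had 424, 461 and 442 CPM at 2 d, against 609, 624 and 706 CPM at 4 h (-0.55 ± 0.17, adjusted p = 0.0253). HNRNPDL had 206, 221 and 241 CPM at 2 d, against 293, 303 and 306 CPM at 4 h (-0.43 ± 0.14, adjusted p = 0.0241). Both were lower in every 2 d library than in any 4 h library. HNRNPA3, an A/B-type hnRNP, had 405, 447 and 443 CPM at 2 d, against 655, 679 and 608 CPM at 4 h, the largest of the 5 changes (-0.59 ± 0.17, adjusted p = 0.0184). The values for HNRNPM (-0.52 ± 0.16, adjusted p = 0.0218) and HNRNPC (-0.42 ± 0.15, adjusted p = 0.0432) use the same 2 d libraries as the comparison with 0 h. Among SR protein genes, edgeR called 0 in this step, while 1 was lower at an unadjusted p under 0.05 and DESeq2 called 1 lower. Some alternatives did call SR protein genes here: SRSF3 lower without 0 h replicate 2 (adjusted p = 0.0343) and with the 6 libraries alone (0.047), SRSF12 lower without 4 h replicate 3 (0.0315), and SRSF5 higher with GC and length offsets (0.51, adjusted p = 0.026). HNRNPLL was also called higher with those offsets (0.47, adjusted p = 0.00821). The number called was 0 without 4 h replicate 2 or 2 d replicate 1, 1 without 2 d replicate 2 or 2 d replicate 3, and 12 without the 3 libraries of steep GC slope. Over all genes, 4377 were called in the main fit and 3304, 3266, 3467 and 3336 without these single libraries in turn. Without the 3 libraries of steep GC slope it was 6725 over all genes. The highest adjusted p with 1 library left out was 0.155 for HNRNPC, 0.105 for HNRNPDL, 0.0895 for HNRNPD, 0.077 for HNRNPM and 0.0758 for HNRNPA3, each without 2 d replicate 1. The call of HNRNPC was also lost without 0 h replicate 3, 4 h replicate 1, 4 h replicate 3 or 4 d replicate 3, and with GC and length offsets its value was -0.21. Over all alternatives the adjusted p ran from 0.00651 to 0.21 for HNRNPC, 6.51e-05 to 0.183 for HNRNPDL, 0.00165 to 0.0895 for HNRNPD, 0.00275 to 0.0876 for HNRNPM and 0.000152 to 0.0758 for HNRNPA3.

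By 4 d of ATRA most hnRNP transcripts and part of the SR protein transcripts had fallen. Among the 33 genes tested, 17 were called lower and 1 higher than at 0 h, against 29.7% and 28.1% of all genes (57.8% in all), so that the balance lay on the lower side (51.5% of the 33 lower). The median log2 fold change was -0.41 against 0 over all genes, with 27 genes below 0. Of the 20 hnRNP and hnRNP-like genes, 12 were called lower and HNRNPLL higher (median -0.50). Of the 12 SR protein genes, 5 were called lower and 0 higher (median -0.29). The difference between the families was not tested. The count stayed between 14 and 21 of 33 with any 1 library left out, and was 22 (21 lower) without the 3 libraries of steep GC slope. With GC and length offsets it was 22 as well, 3 of them higher and 19 lower. Over all genes, 7330 were called in the main fit and 6480 to 7627 with 1 library left out. Without the 3 libraries of steep GC slope it was 8719 over all genes, and with the offsets 8256.

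**Figure D2:**
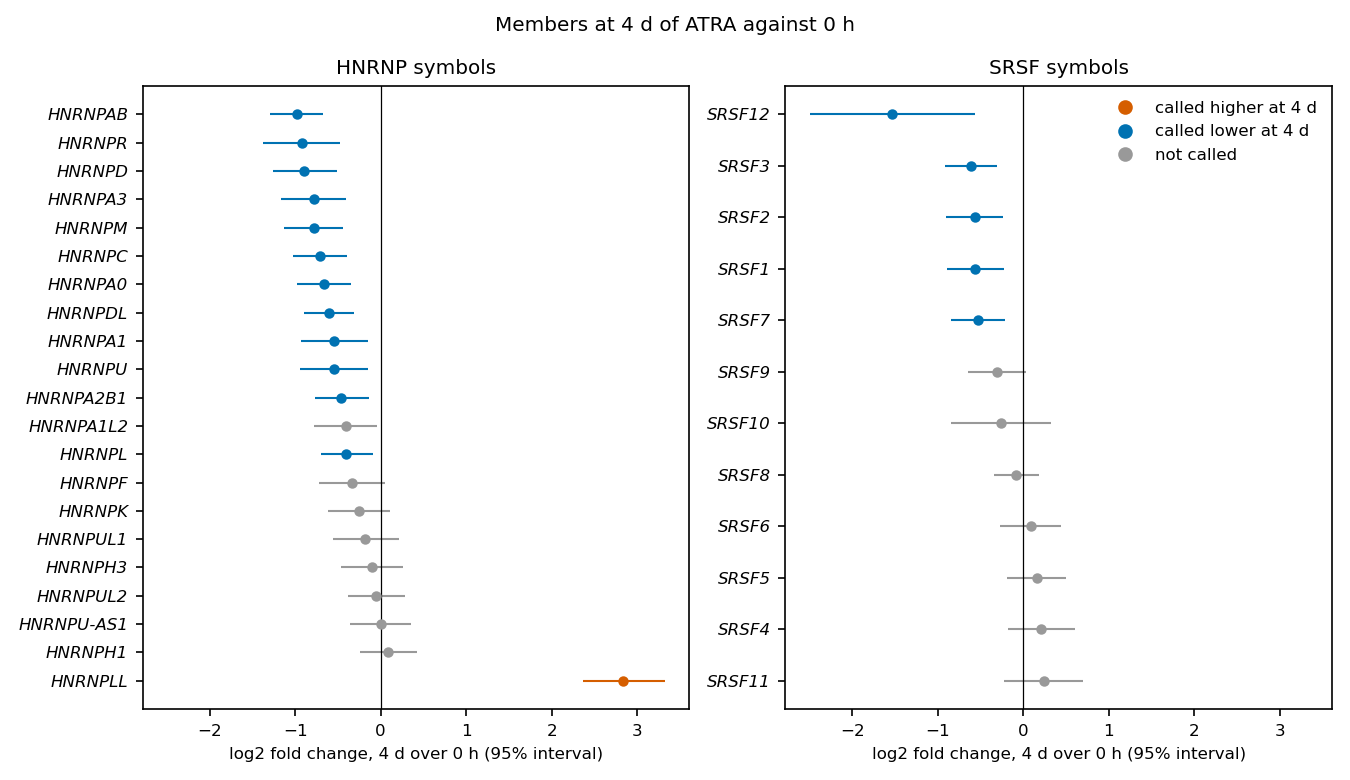
Log2 fold change at 4 d over 0 h (x axes) with its 95% interval for the 33 genes tested, HNRNP symbols in one panel and SRSF symbols in the other, sorted by size. HNRNPLL stands alone to the right at 2.84, most HNRNP genes lie between -1 and 0, and SRSF4, SRSF5, SRSF6 and SRSF11 have intervals that cross 0.

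The largest declines among well-expressed members were in HNRNPAB, HNRNPR and HNRNPD. HNRNPAB, which binds single-stranded nucleic acid and takes part in mRNA localisation, had 307, 272 and 269 CPM at 4 d, against 603, 555 and 511 CPM at 0 h (-0.98 ± 0.14, adjusted p = 7.09e-05). HNRNPR had 66.4, 101 and 95 CPM at 4 d, against 192, 117 and 188 CPM at 0 h (-0.92 ± 0.21, adjusted p = 0.00187). HNRNPD had 285, 330 and 332 CPM at 4 d, against 713, 456 and 585 CPM at 0 h (-0.89 ± 0.17, adjusted p = 0.000665). In all 3 genes every 4 d library was below every 0 h library. This held for each member called lower at 4 d, so it adds no support to their calls. HNRNPAB had been the most abundant member per kilobase at 0 h, and at 4 d it stood at 151 CPM per kb, below HNRNPK at 166, HNRNPH1 at 158 and HNRNPA2B1 at 156.

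The A/B-type hnRNPs, which bind exonic and intronic silencers, fell together with HNRNPAB. HNRNPA3 had 281, 354 and 357 CPM at 4 d, against 684, 455 and 568 CPM at 0 h (-0.78 ± 0.17, adjusted p = 0.00168). HNRNPA0, whose protein binds AU-rich mRNAs under stress signalling, had 110, 124 and 133 CPM at 4 d, against 198, 182 and 200 CPM at 0 h (-0.66 ± 0.14, adjusted p = 0.0015). HNRNPA2B1, the member with the highest CPM, had 888, 918 and 970 CPM at 4 d, against 1408, 1229 and 1171 CPM at 0 h (-0.46 ± 0.15, adjusted p = 0.016). None of these 3 genes had overlapping groups. With GC and length offsets HNRNPA0 was at -1.16. The HNRNPA2B1 call was lost without 0 h replicate 1 (adjusted p = 0.0583, range over all alternatives 0.000429 to 0.0959).

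HNRNPA1, the best-studied splicing silencer of the family, had 47.7, 43.6 and 45.7 CPM at 4 d, against 81.1, 55.9 and 62.2 CPM at 0 h (-0.54 ± 0.18, adjusted p = 0.0216). Its groups did not overlap, but the call was lost without 0 h replicate 1, 4 d replicate 2 or 4 d replicate 3 (highest adjusted p = 0.107) and with GC and length offsets (-0.24, adjusted p = 0.153; range over all alternatives 0.00201 to 0.153). HNRNPA1 and its near-identical copy HNRNPA1L2 share sequence, and how reads were split between them is uncertain. Per kilobase of exon at 0 h, HNRNPA1 had 15.5 CPM and HNRNPA1L2 28.5 CPM. Reads with several alignments were not assigned to genes, so the values of both may rest on part of their reads. Summing the 2 does not bring such reads back. HNRNPA1L2 had 37.8, 24.3 and 26.3 CPM at 4 d, against 38.8, 44.1 and 34.4 CPM at 0 h (-0.41, adjusted p = 0.0559), and was called without 0 h replicate 3 or 4 d replicate 1 (lowest adjusted p = 0.00384). HNRNPA1 with the reads of both summed gave -0.49 (adjusted p = 0.0193), an alternative chosen after seeing the data.

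The C, D, M and DL hnRNPs, lower at 2 d than at 4 h, were also lower at 4 d than at 0 h. HNRNPM had 426, 343 and 345 CPM at 4 d, against 603, 714 and 597 CPM at 0 h (-0.78 ± 0.16, adjusted p = 0.00097). HNRNPC had 523, 426 and 458 CPM at 4 d, against 866, 722 and 714 CPM at 0 h (-0.71 ± 0.15, adjusted p = 0.0012). HNRNPDL had 177, 195 and 191 CPM at 4 d, against 304, 275 and 276 CPM at 0 h (-0.60 ± 0.14, adjusted p = 0.00187). All 3 kept their calls under every alternative, and none had overlapping groups. The promoters of HNRNPD and HNRNPM are shown as 2 declining genes whose RefSeq windows (GRCh38.p14, 5′ to 3′) hold the E-box CACGTG, a motif bound by MYC and related factors, here in capitals. HNRNPD is at chr4:82373942-82374241 on the minus strand and HNRNPM at chr19:8444725-8445024 on the plus strand.
HNRNPD: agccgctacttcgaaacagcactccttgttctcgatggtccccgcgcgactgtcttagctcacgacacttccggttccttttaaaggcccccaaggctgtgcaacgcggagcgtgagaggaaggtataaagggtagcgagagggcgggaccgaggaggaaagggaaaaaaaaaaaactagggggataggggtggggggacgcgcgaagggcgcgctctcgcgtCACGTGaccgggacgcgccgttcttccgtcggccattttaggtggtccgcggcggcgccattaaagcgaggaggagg
HNRNPM: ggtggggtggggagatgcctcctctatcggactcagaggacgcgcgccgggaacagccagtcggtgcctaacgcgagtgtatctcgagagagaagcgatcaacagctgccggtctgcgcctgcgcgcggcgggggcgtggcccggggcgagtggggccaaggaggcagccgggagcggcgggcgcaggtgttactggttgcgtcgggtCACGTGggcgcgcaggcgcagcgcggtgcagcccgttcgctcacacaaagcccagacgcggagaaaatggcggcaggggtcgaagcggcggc
CACGTG reads the same on both strands. It is spelled in 4 of the 15 genes lower at 4 d that have an entry, 2 of the 14 not called and 7.43% of all promoters of this length. CCAAT, on either strand, is in 9 of these 15 genes, 4 of these 14 and 35.7% of all promoters. With so few windows these shares are descriptions, and a match is no evidence of binding.

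HNRNPU and HNRNPL had weaker declines that some libraries decided. HNRNPU, a nuclear scaffold protein that binds chromatin-associated RNA, had 350, 454 and 436 CPM at 4 d, against 732, 458 and 618 CPM at 0 h (-0.54 ± 0.18, adjusted p = 0.0201). The nearest libraries of the groups were 4 d replicate 2 at 454 CPM and 0 h replicate 2 at 458 CPM, and the call was lost without 0 h replicate 1, 0 h replicate 3 or 4 d replicate 1 (highest adjusted p = 0.0953, range 8.16e-05 to 0.0953). HNRNPL, which binds CA repeats, had 365, 319 and 333 CPM at 4 d, against 451, 461 and 426 CPM at 0 h (-0.40 ± 0.14, adjusted p = 0.0274). Its groups did not overlap, and the call was lost without 0 h replicate 1, 4 d replicate 2 or 4 d replicate 3 (highest adjusted p = 0.0866, range over all alternatives 0.00308 to 0.166).

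Among hnRNP transcripts that were not called at 4 d, HNRNPK and HNRNPH1 were both abundant. HNRNPH1, which binds G-runs, had 638, 548 and 580 CPM at 4 d, against 594, 565 and 496 CPM at 0 h (0.09, 95% interval -0.24 to 0.43, adjusted p = 0.627), and was called higher with GC and length offsets (0.38, adjusted p = 0.0212). HNRNPK, which binds C-rich RNA, had 470, 523 and 519 CPM at 4 d, against 688, 463 and 649 CPM at 0 h (-0.25, adjusted p = 0.213). HNRNPF had 220, 287 and 274 CPM at 4 d, against 363, 247 and 374 CPM at 0 h (-0.33, adjusted p = 0.13). In both HNRNPK and HNRNPF the groups overlapped because of 0 h replicate 2, and both were called lower without it (adjusted p = 0.0229 and 0.0122) and with GC and length offsets (adjusted p = 0.0363 and 0.0156). HNRNPH3, HNRNPUL1 and HNRNPUL2 had values of -0.10, -0.18 and -0.05 and overlapping groups, and HNRNPH3 and HNRNPUL2 changed sign under some alternatives. With GC and length offsets HNRNPUL2 was called lower (-0.38, adjusted p = 0.0457). HNRNPU-AS1 stood at 67.1, 64.5 and 61.5 CPM at 4 d, against 70.2, 65.8 and 57.8 CPM at 0 h (0.00, adjusted p = 0.982).

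Among SR proteins, SRSF1, SRSF2, SRSF3 and SRSF7 fell at 4 d. SRSF1, the founding member and an oncogenic splicing activator, had 227, 286 and 268 CPM at 4 d, against 416, 339 and 395 CPM at 0 h (-0.56 ± 0.15, adjusted p = 0.0062). SRSF2, whose gene is recurrently mutated in myeloid neoplasms, had 208, 171 and 183 CPM at 4 d, against 294, 289 and 251 CPM at 0 h (-0.57 ± 0.15, adjusted p = 0.00627). Neither gene had overlapping groups. SRSF3 and SRSF7 are small shuttling SR proteins that act in mRNA export through NXF1. SRSF3 had 269, 255 and 250 CPM at 4 d, against 448, 354 and 380 CPM at 0 h (-0.61 ± 0.14, adjusted p = 0.00224). SRSF7 had 207, 154 and 167 CPM at 4 d, against 260, 260 and 241 CPM at 0 h (-0.53 ± 0.15, adjusted p = 0.00788). All 4 genes kept their calls under every alternative, with SRSF1 at -0.37 under GC and length offsets. SRSF12 was also lower, at 0.52, 0.892 and 0.697 CPM at 4 d, against 1.93, 1.82 and 2.44 CPM at 0 h (-1.53 ± 0.45, adjusted p = 0.0097).

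SRSF4, SRSF5, SRSF6 and SRSF11 were not called and had values above 0 at 4 d, which turned below 0 without 4 d replicate 1. SRSF6 had 442, 324 and 346 CPM at 4 d, against 337, 401 and 309 CPM at 0 h (0.09, 95% interval -0.27 to 0.44, adjusted p = 0.677). SRSF5, first cloned from regenerating rat liver, had 182, 130 and 138 CPM at 4 d, against 139, 145 and 121 CPM at 0 h (0.16, interval -0.19 to 0.50, adjusted p = 0.424). SRSF4 had 228, 147 and 149 CPM at 4 d, against 145, 165 and 145 CPM at 0 h (0.21, interval -0.18 to 0.60, adjusted p = 0.351). The high value was in each case that of 4 d replicate 1, a library of steep GC slope, and so it was for SRSF11, which had 348, 225 and 221 CPM at 4 d, against 205, 284 and 185 CPM at 0 h (0.24, interval -0.22 to 0.70, adjusted p = 0.351). Without 4 d replicate 1 the values were -0.06 for SRSF6, -0.01 for SRSF5, -0.04 for SRSF4 and -0.01 for SRSF11. With GC and length offsets SRSF6 was at -0.17, and SRSF5 was called higher at 0.42 (adjusted p = 0.0423). SRSF9 and SRSF10 were at -0.31 and -0.26 (adjusted p = 0.105 and 0.427), SRSF9 being called lower without 0 h replicate 2 (adjusted p = 0.0241). SRSF8, a retrocopy of SRSF2, varied little, at 46.1, 46.8 and 46.5 CPM at 4 d, against 51.6, 47 and 48.7 CPM at 0 h (-0.08, adjusted p = 0.594).

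**Figure D3:**
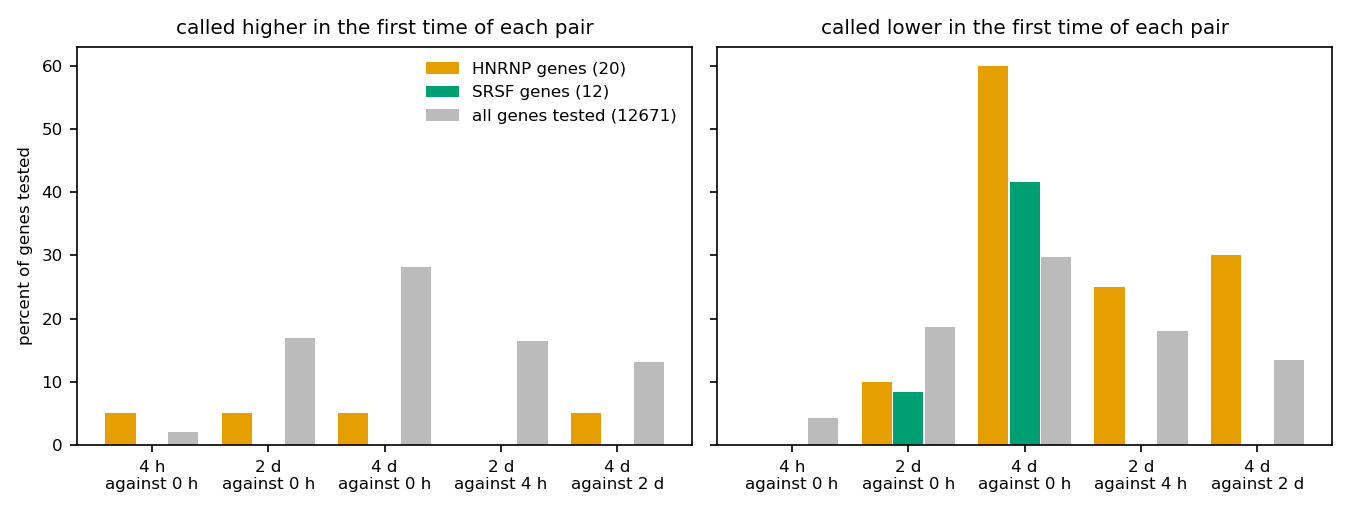
Percent of tested genes called (y axis, adjusted p under 0.05) in 5 comparisons of times (x axis), called higher in one panel and lower in the other, for 20 HNRNP genes, 12 SRSF genes and all 12671 genes. At 4 d against 0 h, 60% of the HNRNP genes, 41.7% of the SRSF genes and 29.7% of all genes were called lower; in the other comparisons the SRSF bars reach at most 8.33%.

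From 2 d to 4 d, 6 genes fell and 2 rose, against 13.5% and 13.1% of all genes (26.6% in all), with a median of -0.27 against 0. HNRNPA0, not called at 4 h or 2 d, had 110, 124 and 133 CPM at 4 d, against 203, 195 and 187 CPM at 2 d (-0.67 ± 0.14, adjusted p = 0.00439). HNRNPR had 66.4, 101 and 95 CPM at 4 d, against 165, 170 and 146 CPM at 2 d (-0.87 ± 0.21, adjusted p = 0.00786). HNRNPAB had 307, 272 and 269 CPM at 4 d, against 411, 449 and 462 CPM at 2 d (-0.64 ± 0.14, adjusted p = 0.00575). These 3 declines held under every alternative, with no overlap between the groups. HNRNPF (-0.53 ± 0.18, adjusted p = 0.0445), HNRNPU (-0.52 ± 0.18, adjusted p = 0.0488) and HNRNPUL1 (-0.55 ± 0.18, adjusted p = 0.0388) were called close to the threshold. HNRNPUL1, an HNRNPU relative with a role in the DNA damage response, had 364, 403 and 413 CPM at 4 d, against 621, 614 and 488 CPM at 2 d. HNRNPU-AS1 rose in the same step, with 67.1, 64.5 and 61.5 CPM at 4 d, against 34.3, 45.2 and 56.6 CPM at 2 d (0.51 ± 0.17, adjusted p = 0.0398).

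The other 5 calls between 2 d and 4 d, HNRNPLL included, were each lost without 4 h replicate 2, 2 d replicate 1, 2 d replicate 2 or any 4 d library. Without 2 d replicate 3 those of HNRNPF, HNRNPU and HNRNPLL were lost too, and HNRNPU also lost its call without 0 h replicate 3. The highest adjusted p was 0.143 for HNRNPF and 0.156 for HNRNPU, both without 4 d replicate 1, and 0.127 for HNRNPUL1 and 0.177 for HNRNPU-AS1 (log2 fold change 0.33), both without 2 d replicate 1. The lowest over all alternatives were 0.00612, 0.00506, 0.00627 and 0.0146 for these genes. The number called was 3 without 4 h replicate 2, 2 d replicate 1, 2 d replicate 2 or any 4 d library, 5 without 2 d replicate 3, and 15 (13 lower) without the 3 libraries of steep GC slope. Over all genes it was 3374 in the main fit and 2110 to 2957 without these single libraries. Without the 3 libraries of steep GC slope it was 5549 over all genes. Among SR protein genes, edgeR called 0 from 2 d to 4 d, while 1 was lower at an unadjusted p under 0.05 and DESeq2 called 1 lower. SRSF1 was called lower with 0 h replicate 2 left out (adjusted p = 0.0329), with 4 h replicate 3 left out (0.0384), in the 6 libraries alone (0.0402) and with GC and length offsets (0.0352). Without the 3 libraries of steep GC slope, SRSF1, SRSF2, SRSF3 and SRSF7 were called lower (adjusted p = 0.0229, 0.0361, 0.0319 and 0.00406).

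The proteins that act with SR proteins and hnRNPs were read from 6 lists, described here at 4 d against 0 h by their counts and medians beside the values of 29.7% lower, 28.1% higher and a median of 0 for all genes. In the spliceosome core, 26 of 42 genes fell and 1 rose (median -0.81). SNRPF and SNRPD1, Sm ring proteins, averaged 53.2 ± 11.2 and 47.5 ± 1.61 CPM at 4 d, against 223 ± 49.7 and 177 ± 47.4 CPM at 0 h (-2.07 ± 0.22 and -1.90 ± 0.19, adjusted p = 4.62e-06 and 1.85e-06). The gene that rose was SF3B1, the branch-site subunit of the U2 particle, at 647 ± 132 CPM at 4 d, against 295 ± 13.5 CPM at 0 h (1.13 ± 0.19, adjusted p = 0.000201). At 2 d edgeR called 17 of 42 core genes lower and 0 higher (median -0.56), against 18.7% lower, 16.9% higher and a median of -0.02 for all genes, while 1 was higher at an unadjusted p under 0.05 and DESeq2 called 1 higher. At 4 h edgeR called 0 of 42, against 6.23% of all genes, with 4 higher at an unadjusted p under 0.05 and 1 called higher by DESeq2.

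The list of hnRNP proteins that go by other symbols was widened by TARDBP, EWSR1, TAF15, MATR3 and KHDRBS1. It resembled the HNRNP genes in direction, with 12 of 13 values below 0 (median -0.41). Of the 13 genes, 5 were called lower and 1 higher (38.5% and 7.69%). The share called lower was nearer to the 29.7% of all genes than to the 60% of the HNRNP genes. TAF15 and KHDRBS1 were among the 5 lower genes. PTBP1, the polypyrimidine tract silencer once called hnRNP I, averaged 436 ± 7.49 CPM at 4 d, against 697 ± 73.1 CPM at 0 h (-0.68 ± 0.15, adjusted p = 0.00159). SYNCRIP, or hnRNP Q, the closest relative of HNRNPR, averaged 111 ± 23.2 CPM at 4 d, against 221 ± 59.2 CPM at 0 h (-1.0 ± 0.22, adjusted p = 0.00152), and TAF15 231 ± 21 CPM at 4 d, against 517 ± 139 CPM at 0 h (-1.16 ± 0.19, adjusted p = 0.000154). The one that rose, CIRBP, a cold-inducible RNA-binding protein, was close to the threshold (0.53 ± 0.21, adjusted p = 0.047). Its call was lost in 12 of 23 alternatives, 10 of them with 1 library left out (adjusted p = 0.177 without 0 h replicate 3, range 0.000556 to 0.177), among these every library of 2 d and 4 d, 0 h replicate 1, 4 h replicate 1 and 4 h replicate 2.

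In the list of SR protein kinases, phosphatases and nuclear import factors, 5 of 15 genes rose and 2 fell (33.3% and 13.3%, median 0.17). The share that rose was near the 28.1% of all genes. The import factor TNPO3 was not called (-0.21 ± 0.17, adjusted p = 0.318). CLK1 and CLK4 phosphorylate SR proteins in the nucleus and release them from speckles. CLK1 averaged 149 ± 30.8 CPM at 4 d, against 70.1 ± 8.04 CPM at 0 h (1.08 ± 0.18, adjusted p = 0.000157), and CLK4 61.5 ± 11 CPM at 4 d, against 22.4 ± 2.08 CPM at 0 h (1.45 ± 0.17, adjusted p = 7.71e-06). DYRK1A, a kinase that also targets splicing factors, rose as well (1.04 ± 0.15, adjusted p = 6.81e-05), while TNPO2, a transportin for RNA-binding proteins, and PPP1CC, a catalytic subunit of phosphatase 1, fell (-0.72 ± 0.19 and -0.75 ± 0.20, adjusted p = 0.00462 and 0.00626).

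SR-related proteins moved both ways, with 4 of 27 higher and 4 lower (median 0.07). RBM39, a coactivator of U2AF, averaged 443 ± 86 CPM at 4 d, against 236 ± 8.97 CPM at 0 h (0.91 ± 0.16, adjusted p = 0.000352). SCAF11 rose too (0.70 ± 0.20, adjusted p = 0.00881), and SCAF8 (0.56 ± 0.20, adjusted p = 0.0316) lost its call without 0 h replicate 1, 0 h replicate 2, 4 d replicate 2 or 4 d replicate 3 (adjusted p = 0.118 without 0 h replicate 2, range 0.0113 to 0.118). U2AF1, which recognises the AG of the 3′ splice site, averaged 136 ± 20.6 CPM at 4 d, against 275 ± 46.6 CPM at 0 h (-1.01 ± 0.18, adjusted p = 0.000353). RNPS1 and TRA2B, an SR-like enhancer protein, fell by 0.95 ± 0.17 and 0.61 ± 0.17 on the log2 scale (adjusted p = 0.000304 and 0.00611). With GC and length offsets SCAF8 was at 0.31 and TRA2B at -0.35.

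In nonsense-mediated decay, the pathway that degrades many unproductive SR and hnRNP isoforms, 3 of 14 genes rose and 3 fell (median -0.18). SMG6, the endonuclease of the pathway, averaged 241 ± 7.16 CPM at 4 d, against 20.9 ± 4.78 CPM at 0 h (3.53 ± 0.19, adjusted p = 1.29e-08). SMG1, the kinase that phosphorylates UPF1, averaged 237 ± 61.3 CPM at 4 d, against 102 ± 7.84 CPM at 0 h (1.21 ± 0.26, adjusted p = 0.0013), and UPF3A rose by 0.61 ± 0.16 (adjusted p = 0.00452). MAGOH, RBM8A and EIF4A3, which belong to the core of the exon junction complex, all fell. CASC3, a further gene of the list, was not called. MAGOH averaged 29.5 ± 1.01 CPM at 4 d, against 73.7 ± 13 CPM at 0 h (-1.32 ± 0.17, adjusted p = 1.64e-05), and the values for RBM8A and EIF4A3 were -0.67 ± 0.14 and -0.68 ± 0.18 (adjusted p = 0.00099 and 0.00489), RBM8A being at -0.39 with GC and length offsets.

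Of other splicing regulators, 6 of 17 rose and 3 fell (median 0.41). RBM47 averaged 61.7 ± 6.77 CPM at 4 d, against 5.62 ± 1.77 CPM at 0 h (3.45 ± 0.24, adjusted p = 9.47e-08). MBNL1, a muscleblind protein, averaged 253 ± 28.3 CPM at 4 d, against 132 ± 28.4 CPM at 0 h (0.94 ± 0.20, adjusted p = 0.00134), and TIA1, which binds uridine-rich 5′ splice site flanks, 154 ± 23.8 CPM at 4 d, against 68.7 ± 6.43 CPM at 0 h (1.16 ± 0.17, adjusted p = 5.27e-05). KHSRP and ELAVL1, known for their opposite effects on AU-rich mRNAs, both fell (-0.85 ± 0.15 and -0.77 ± 0.15, adjusted p = 0.000292 and 0.000593). RBM38 fell by 0.64 ± 0.21 (adjusted p = 0.0192), and its call was lost without 0 h replicate 3 or 4 d replicate 3 (highest adjusted p = 0.0767, range over all alternatives 0.00234 to 0.0767).

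**Figure D4:**
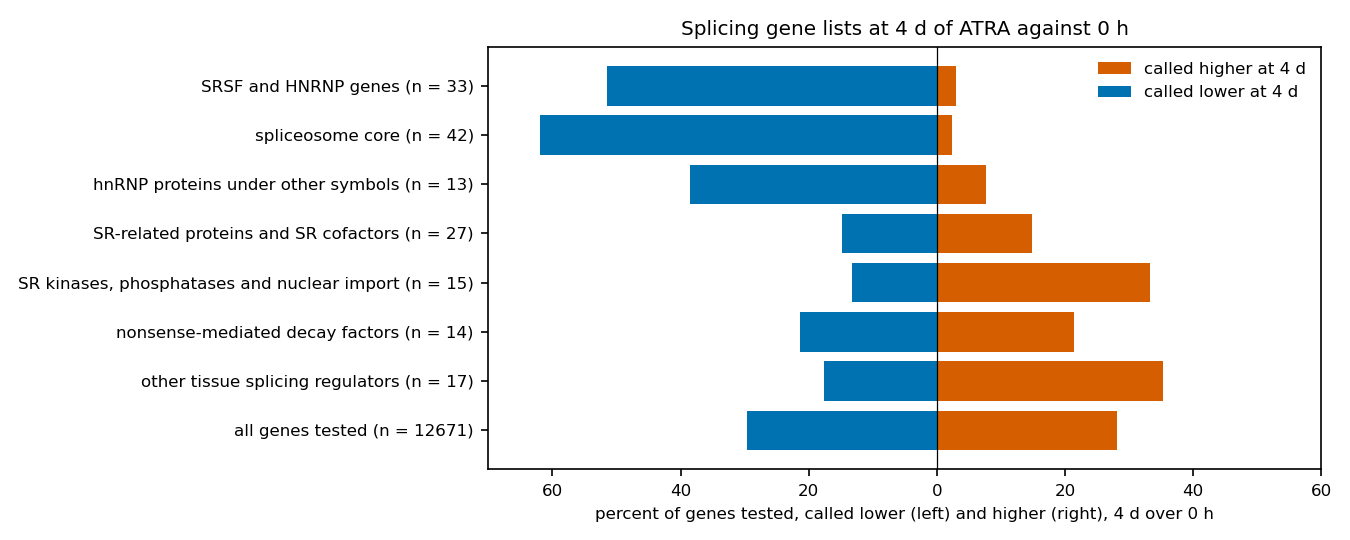
Percent of tested genes called lower (bars to the left) and higher (bars to the right) at 4 d over 0 h (x axis, linear) for the SRSF and HNRNP genes, 6 further splicing lists and all genes (y axis, with the number tested). The SRSF and HNRNP genes have 51.5% lower and 3.03% higher, the spliceosome core 61.9% and 2.38%, and all genes 29.7% and 28.1%.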

How the data were processed

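The authors deposited counts, whole numbers of reads per gene, for 12 HL-60 libraries. The tools named in the submitters' processing notes are FastQC, Trim Galore 0.6.7, HISAT2 2.1.0 and HTSeq 1.99.2, and the build is hg19. Not given in the sources used here are the annotation, strand setting, kit and treatment of multi-mapping reads. Rows of unassigned reads (no feature 14% to 28.1%, ambiguous 2.74% to 3.9%, several alignments 4.5% to 5.7% of a library) were kept out of totals and tests.

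Genes were filtered with filterByExpr (12671 kept) and tested in R 4.3.3 with edgeR 4.0.16, glmQLFit and glmQLFTest, with TMM scaling, 1 mean per time over 12 libraries and 8 residual degrees of freedom. The SE is the log2 fold change divided by the square root of F. Alternatives were DESeq2 1.42.0, other scaling and filters, GC and length offsets, a replicate term, 6 libraries alone, a stricter threshold and libraries left out. GC content, length and exon length came from GENCODE v29 on GRCh38 by symbol (97% of tested members). The tests were tried on simulated data.

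Members and lists were chosen with earlier results of these data known. Named members were the 4 called that rose and fell most per comparison, the 5 of highest mean CPM and 18 set genes; other members are given for completeness, with values seen. List genes were up to 3 called per direction at a mean of 10 CPM or more. RefSeq promoters (GRCh38.p14) matched 35 members.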

Additional observations from a re-analysis of the deposited data

How the results depend on the processing

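Of 38 called changes of single SRSF and HNRNP genes, 19 kept direction and call under all 23 alternatives, 19 lost the call under at least 1, and 0 reversed. Among genes of the other lists, 28 of 31 kept their calls. The cause of these differences was not tested, other than that fewer libraries or a lower threshold entered some of them.

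The number of SRSF and HNRNP genes called at 4 h against 0 h (2) was 1 with the replicate block, with the 6 libraries alone and at an adjusted p under 0.01, 1 to 2 with 1 library left out and 3 without the 3 libraries of steep GC slope. At 2 d against 0 h (5) it was 2 with library totals alone, 2 without a filter on low counts, 2 with the replicate block, 10 with GC and length offsets, 10 with DESeq2, 3 with the 6 libraries alone, 1 at an adjusted p under 0.01, 1 to 8 with 1 library left out and 10 without those 3. At 4 d against 0 h (18) it was 14 to 22 under every alternative, 14 to 21 with 1 library left out. At 2 d against 4 h (5) it was 1 with library totals alone, 1 without a filter, 1 with the replicate block, 8 with GC and length offsets, 8 with DESeq2, 0 at an adjusted p under 0.01, 0 to 7 with 1 library left out and 12 without those 3. At 4 d against 2 d (8) it was 4 with library totals alone, 4 without a filter, 3 with the replicate block, 3 at an adjusted p under 0.01, 3 to 10 with 1 library left out and 15 without those 3. Over all genes, the main fit called 790, 4512, 7330, 4377 and 3374 in these comparisons, in order. Without those 3 libraries it was 3192, 6761, 8719, 6725 and 5549. With GC and length offsets it was 1280, 5785, 8256, 5606 and 4755, and with DESeq2 1180, 4739, 7369, 4493 and 3551.

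Genes not called were followed for sign only at 4 d against 0 h or at an unadjusted p under 0.05, and the changes of sign among them were these, all at 4 d against 0 h. HNRNPU-AS1 gave 0.02 with RLE factors, 0.06 with library totals alone, 0.01 at a mean of at least 1 CPM, 0.01 with DESeq2, and from -0.08 to 0.05 with 1 library left out. HNRNPUL2 gave 0.01 with library totals alone, -0.38 (called lower) with GC and length offsets and -0.15 to 0.11 with 1 library left out, over which HNRNPH3 ran from -0.20 to 0.03. SRSF6 gave -0.17 with GC and length offsets, under which SRSF5 (0.42) and HNRNPH1 (0.38) were called higher, and with 1 library left out SRSF6 ran from -0.06 to 0.20, SRSF4 from -0.04 to 0.31, SRSF5 from -0.01 to 0.24 and SRSF11 from -0.01 to 0.45, each negative only without 4 d replicate 1.

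Replicate numbers were not treated as pairs in the main test. Deviations of same-numbered libraries correlated at -0.82 to 0.68, and 0 of 12 libraries correlated best with their own number. The libraries of steep GC slope carry different replicate numbers, so these correlations cannot decide whether libraries were paired. Low counts limit SRSF12, with at most 25 reads in a library, and the 10 genes that were not tested.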
